A study of Glycine max with 30 samples.

Results

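Leaves of soybean plants that carried an RNAi transgene against NRPD1 were compared with leaves of their siblings without the transgene, all of cultivar Jack. The comparison was chosen by the sample titles and holds 6 of the 30 libraries of the series, 3 transgenic (T, replicates 1 to 3, called T1 to T3) and 3 non-transgenic (NT1 to NT3). All 55589 genes of the count tables were considered. The other 24 libraries come from a second cultivar, Mustang, where an NRP(D/E)2-RNAi family and an NRPE1-RNAi family each gave 6 T and 6 NT libraries, and they are used below only to show where the Jack family differs. Polyadenylated RNA of mature leaves was sequenced, so small RNAs and DNA methylation are not part of these counts. The labels do not say which promoter drives the hairpin, how many transgenic events the 3 T libraries stand for, or whether the siblings were collected on the same day. P-values therefore measure the spread between these libraries of sibling plants.

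NRPD1 is the largest subunit of RNA polymerase IV, a plant enzyme that transcribes transposons and other repeats. In Arabidopsis its transcripts are made double-stranded and diced into short interfering RNAs, which guide DNA methylation to matching sequence where RNA polymerase V, with NRPE1 as its largest subunit, provides a scaffold transcript. NRP(D/E)2 is the second largest subunit, which both polymerases share. The pathway is known for keeping transposons, and some genes that lie beside them, silent. None of the 55589 gene identifiers could be paired with a symbol, since 0 of them matched the 59048 genes of the reference table used here. The level of the targeted gene and the leaf markers could for that reason not be checked, and genes are given by identifier, with no role. The chromosome and the place of a gene along it were read from its identifier.

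T libraries held 13049785, 12204408 and 13743064 counts, against 12874017, 13036316 and 12461936 in NT libraries. At a common depth of 10049997 counts, 38974 ± 385 genes were detected in T libraries and 38377 ± 834 in NT libraries (SD, n = 3 each; difference 597, two-sided exact permutation p = 0.4, where 3 against 3 cannot go below 0.1). The libraries did not divide cleanly by transgene. On the log2 scale of CPM (counts per 1000000 counts of a library), across genes, T3 correlated with the other libraries at 0.806 to 0.882, whereas the other libraries correlated with each other at 0.910 to 0.976. T3 lay at least 4-fold above all 5 other libraries in 278 genes and at least 4-fold below all of them in 214 of the 30539 tested, and each other library did so in 0 to 2 and 0 to 9 genes. NT3 stood nearer to T1 (0.957) and T2 (0.959) than to NT1 (0.940) and NT2 (0.913). The common biological coefficient of variation was 35.7% with all 6 libraries, 24.8% without T3 and 36.7% to 40.8% without any other library. The counts of calls and the other results that rest on T3 are therefore given with and without it.

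**Figure D1:**
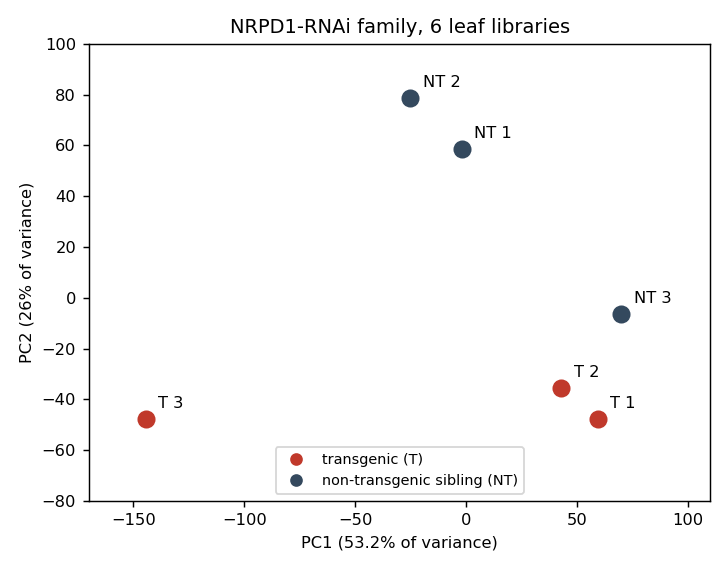
Principal components of log2 CPM in the 6 Jack libraries, with PC1 (53.2% of the variance) on the x axis and PC2 (26% of the variance) on the y axis; each point is a library. T3 lies at -144.3 on PC1, away from T1, T2 and NT3 at 59.2, 42.7 and 69.7, while PC2 runs from -47.8 to -35.5 in T libraries and from -6.5 to 78.9 in NT libraries.

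Transgenic leaves held more RNA of 5 genes, and no gene was called lower. In their siblings 1 of the 5 was near 0, 1 was at 0.614 to 1.64 CPM and 3 stood higher. A gene was called at a Benjamini-Hochberg adjusted p under 0.05 in edgeR's quasi-likelihood test, adjusted over all 30539 genes tested, and the 5 called genes were 0.0164% of these. Their log2 fold changes ran from 2.45 to 8.33. At an unadjusted p under 0.05 the same test found 1887 genes higher (6.18%) and 477 lower (1.56%). In whole leaves, more RNA per cell and more cells that express a gene cannot be told apart. Levels below are in CPM scaled by the trimmed mean of M-values (TMM) over all 30 libraries, and log2 fold changes are T minus NT. The value after ± on a log2 fold change or difference is an approximate standard error. It is the absolute log2 value divided by the square root of edgeR's F statistic. Where a group holds few counts it can be too small.

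The widest change was that of Glyma.17G224900, gene 2249 of 2627 on chromosome 17. It stood at 12.2, 13.3 and 19.8 CPM in T1, T2 and T3, against 0, 0 and 0.103 CPM in NT1, NT2 and NT3. The 3 T libraries together held 482 counts and the 3 NT libraries 1 count, a ratio of 474 per depth with an exact 95% interval of 84.7 to 18800 that covers counting error only. Its log2 fold change was 8.33 ± 0.64 (edgeR adjusted p = 0.0492). The same gene was close to 0 in the other families. NRP(D/E)2-RNAi T leaves gave a median of 0.053 CPM (0 to 0.154) and their NT siblings a median of 0 (0 to 0.0668). NRPE1-RNAi T leaves gave a median of 0.288 CPM (0.151 to 1.05), against 0.216 CPM (0 to 0.781) in NT siblings. The NRPD1-RNAi effect exceeded the NRPE1-RNAi effect by 7.87 ± 1.28 log2 units (edgeR adjusted p = 0.00199), and the difference to NRP(D/E)2-RNAi, 7.06 ± 2.25, did not pass (adjusted p = 0.267).

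Glyma.06G286900, gene 2869 of 3258 on chromosome 6, was raised in every family. It measured 112, 87.6 and 91.3 CPM in Jack T leaves, against 0.614, 1.64 and 0.62 CPM in Jack NT leaves (log2 fold change 6.69 ± 0.42, edgeR adjusted p = 0.0359). In NRP(D/E)2-RNAi its median was 41.8 CPM in T leaves (26.6 to 75.9) and 0 CPM in NT leaves (0 to 1). In NRPE1-RNAi the medians were 505 CPM in T leaves (290 to 829) and 2.02 CPM in NT leaves (0.134 to 19.7). T and NT libraries did not overlap in any of the 3 families. The Jack effect differed from that of NRP(D/E)2-RNAi by -0.49 ± 1.43 log2 units and from that of NRPE1-RNAi by -0.08 ± 1.58, and neither difference passed (edgeR adjusted p = 0.975 and 1). The level in transgenic leaves itself was higher in NRPE1-RNAi than in Jack, with the lowest of the 6 NRPE1-RNAi T libraries above the highest Jack T library.

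The other 3 called genes were expressed in Jack leaves without the transgene and stood several-fold higher with it. Glyma.04G054400 (gene 544 of 2574 on chromosome 4) measured 153, 153 and 199 CPM in T leaves, against 20.9, 25.9 and 26.2 CPM in NT leaves (log2 fold change 2.83 ± 0.24, edgeR adjusted p = 0.0492). Glyma.20G015900 (gene 159 of 2502 on chromosome 20) measured 76.8, 67.9 and 79.1 CPM in T leaves, against 11.2, 16 and 14.9 CPM in NT leaves (2.45 ± 0.21, adjusted p = 0.0492 by edgeR). Glyma.09G071600 (gene 716 of 2865 on chromosome 9) measured 29.9, 26.1 and 31.9 CPM in T leaves, against 5.32, 3.98 and 3.72 CPM in NT leaves (2.78 ± 0.22, adjusted p = 0.0492 by edgeR). In each of the 3 the libraries of a group lay close together, and the lowest T library stood several-fold above the highest NT library.

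In the Mustang families 1 of these 3 genes was called, in 1 family, and Glyma.20G015900 was not tested in NRP(D/E)2-RNAi. Glyma.04G054400 was at a median of 1.56 CPM in NRP(D/E)2-RNAi T leaves and 0.374 CPM in NT leaves (log2 fold change 1.90 ± 0.52, edgeR adjusted p = 0.0279), and at 11.8 and 8.99 CPM in NRPE1-RNAi T and NT leaves (0.35 ± 0.47, adjusted p = 0.767). Its Jack effect exceeded that of NRP(D/E)2-RNAi by 0.94 ± 0.81 and that of NRPE1-RNAi by 2.45 ± 0.71, and neither difference passed (edgeR adjusted p = 0.842 and 0.189). Glyma.20G015900 was at 6.38 and 6.21 CPM in NRPE1-RNAi T and NT leaves (0.12 ± 0.22), and its Jack effect was larger by 2.30 ± 0.47 (edgeR adjusted p = 0.0181). In NRP(D/E)2-RNAi that gene had medians of 0.432 CPM in T leaves and 0.369 CPM in NT leaves. It did not pass the filter on low counts in that family's own fit. The difference of that gene to NRP(D/E)2-RNAi, 1.96 ± 0.53, did not pass (edgeR adjusted p = 0.136). For Glyma.09G071600 the Jack effect exceeded that of NRPE1-RNAi by 2.81 ± 0.66 and that of NRP(D/E)2-RNAi by 2.37 ± 0.66, and neither difference passed after adjustment (edgeR adjusted p = 0.062 and 0.155). The construct and the cultivar change together between Jack and Mustang and cannot be told apart in these differences.

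**Figure D2:**
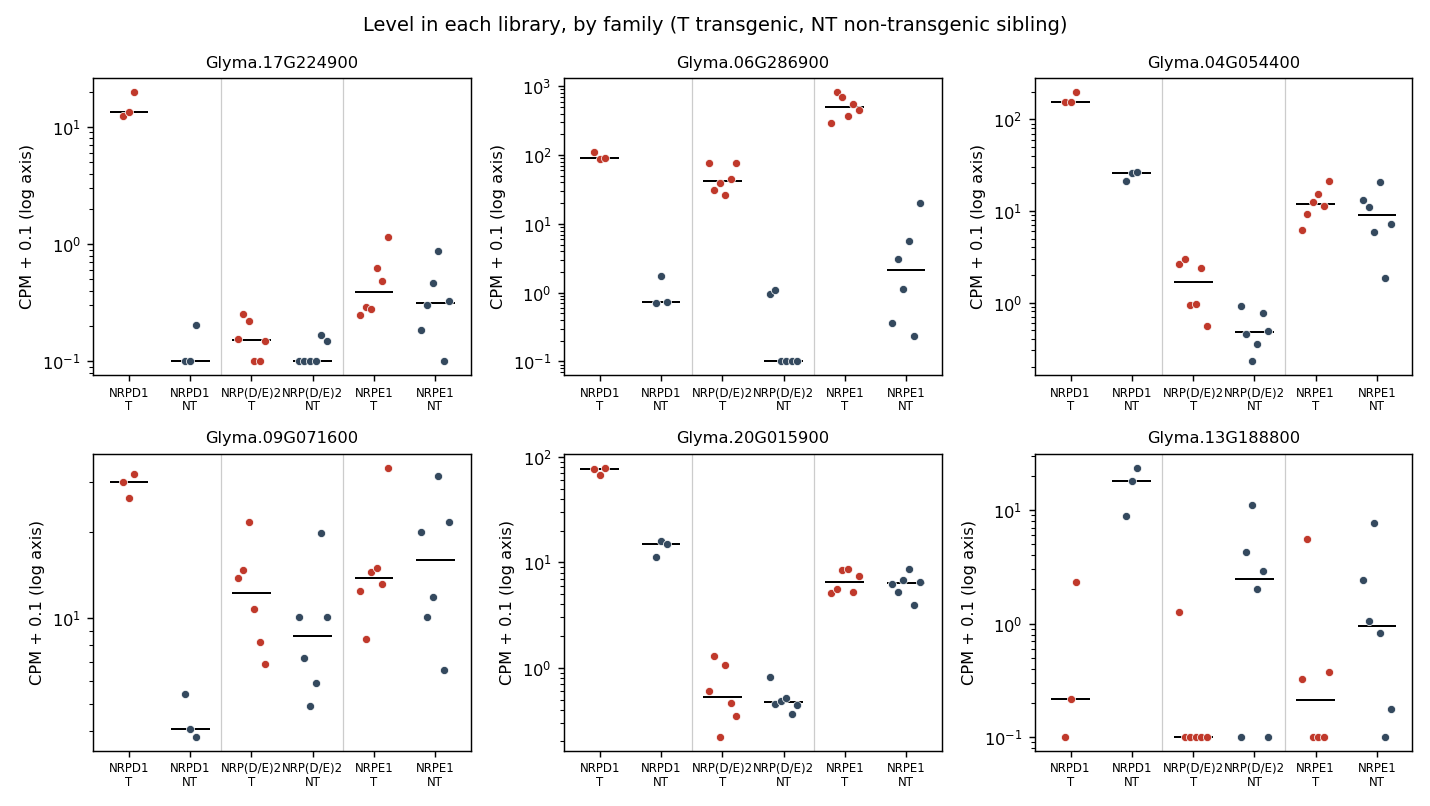
Level of the 5 called genes and of Glyma.13G188800, the gene called lower without T3, as CPM + 0.1 on a log axis, in each library of the 3 families; points are libraries (T red, NT dark) and bars are group medians. Glyma.06G286900 is high in the T leaves of all 3 families, while Glyma.17G224900 is high in Jack T leaves alone, at 12.2 to 19.8 CPM.

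All 5 calls stood near the threshold. Removal of NT1, NT3, T1 or T2 left 0 calls and removal of NT2 left 1, while the log2 fold changes of the 5 genes kept their sign. Over these removals that of Glyma.20G015900 ran from 2.27 to 2.52 and that of Glyma.17G224900 from 7.83 to 10.22, with 10.22 reached without NT3, which held its single NT count. Removal of T3 raised the number to 54 of 30963 genes tested (0.174%), of which 53 were higher (0.171%) and 1 lower (0.00323%). Tests that estimate the spread differently gave other counts. DESeq2 called 554 genes (1.81%), 512 higher (1.68%) and 42 lower (0.138%), and without T3 it called 724 (2.34%), 655 higher (2.12%) and 69 lower (0.223%). A single edgeR model of all 30 libraries, in which the spread is estimated over all 3 families, called 208 of 36186 genes (0.575%) for the Jack contrast, 199 higher (0.550%) and 9 lower (0.0249%), and without T3 it called 264 of 36941 (0.715%), 213 higher (0.577%) and 51 lower (0.138%). Limma's voom called 1 gene (0.00327%). Each test that called more than 1 gene placed most of its calls on the higher side.

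**Figure D3:**
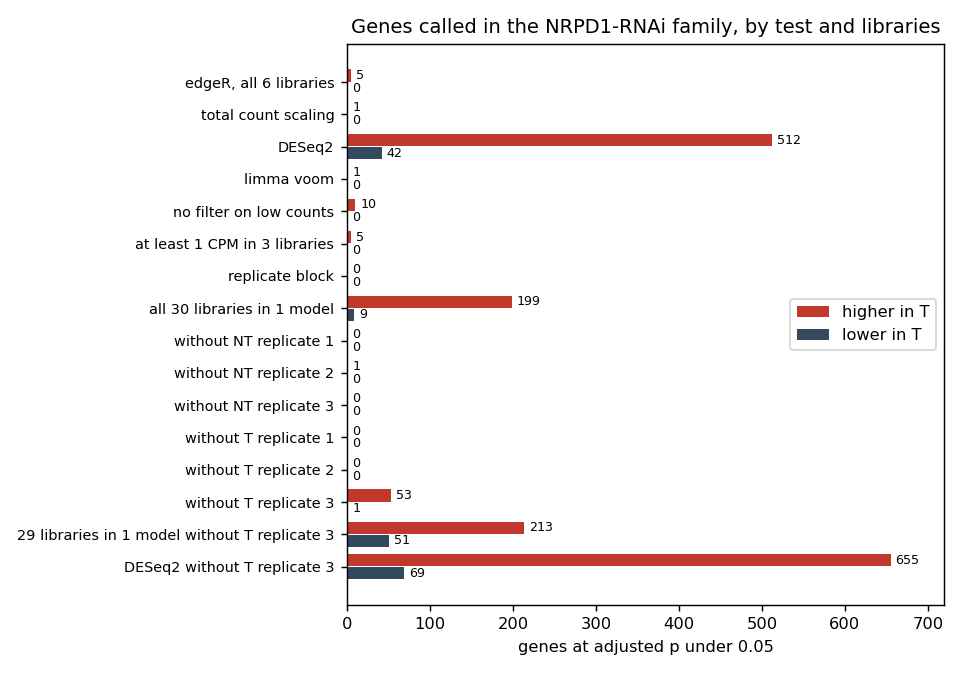
Number of genes at an adjusted p under 0.05 in the Jack family under each test and choice of libraries, from 0 (left edge) on a linear axis; red bars are genes higher in T leaves and dark bars genes lower in T leaves. The count runs from 0 with the replicate number as a block to 655 higher and 69 lower with DESeq2 without T3.

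The 53 genes that were higher without T3 had log2 fold changes of 1.72 to 8.01 (median 2.74, against -0.02 over all genes tested in that fit). They include the 5 genes above. Their median level was 29.2 CPM in T1, 25.7 CPM in T2 and, in the library the fit had left out, 19.8 CPM in T3, against 3.38, 3.98 and 4.03 CPM in NT1, NT2 and NT3. T3 is compared there with the same NT libraries that served to choose the list. With T3 in the fit, their adjusted p ran from 0.0359 to 0.496. DESeq2 with all 6 libraries called 52 of them (1.68% of all tested genes were called higher) and the model of 30 libraries called 31 (0.55%). Both fits hold the libraries that served to choose the list, so these counts are no separate check. They lie on 19 of the 20 chromosomes, and 10 of them were under 1 CPM on average in NT leaves. Of the 53, 7 (13.2%) have another member of the list within 5 genes on the same chromosome, against 0.924% of all 30963 tested genes with a member that near. These neighbours fall in 3 places: 2 genes on chromosome 6 (genes 1016 to 1020), 3 on chromosome 8 (genes 687 to 690) and 2 on chromosome 15 (genes 301 to 305), with log2 fold changes of 1.72 to 4.00.

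The Mustang libraries took no part in the choice of this list. In NRP(D/E)2-RNAi, 42 of the 53 genes could be tested, 19 were called higher (8.51% of all tested genes were) and 0 lower (7.17% of all tested genes were), with a median log2 fold change of 1.25 against -0.01 over all genes. T and NT libraries of that family did not overlap in 9 genes, all higher in T leaves (3.82% of all tested genes). In NRPE1-RNAi, 46 of the 53 could be tested, 7 were called higher (1.16% of all tested genes) and 0 lower (0.754%), with a median of 0.55. T and NT libraries did not overlap there in 9 genes either, all higher in T leaves (1.28% of all tested genes). Without any filter on low counts, the mean of T leaves exceeded that of NT leaves for 46 of the 53 genes in the NRP(D/E)2-RNAi family and for 45 in NRPE1-RNAi. The share of all genes with a higher T mean is not given here, so these counts have no background beside them. Of the 199 genes called higher for Jack in the model of 30 libraries, 72 were also called higher for NRP(D/E)2-RNAi in that model (6.72% of all genes were) and 41 for NRPE1-RNAi (2.44% of all genes were). The median log2 fold change of the 199 in Jack was 1.71.

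In the fit of the 6 Jack libraries edgeR called no gene lower in transgenic leaves, and without T3 it called 1. Glyma.13G188800 (gene 1888 of 3730 on chromosome 13) measured 0, 0.115 and 2.24 CPM in T1, T2 and T3, against 8.7, 17.8 and 23.5 CPM in NT1, NT2 and NT3. Its log2 fold change was -4.16 ± 1.07 with all 6 libraries (edgeR adjusted p = 0.323) and -7.89 ± 0.86 without T3 (edgeR adjusted p = 0.0416), when it was the single gene called lower. T3 held most of the RNA of this gene in T leaves, and yet T and NT libraries did not overlap. It varied between libraries in Mustang too, with 5 of 6 NRP(D/E)2-RNAi T libraries at 0, against 2 of 6 in NT libraries. Glyma.19G047000 (gene 470 of 2642 on chromosome 19) measured 1.34, 4.37 and 1.93 CPM in T leaves, against 15.3, 26.9 and 4.96 CPM in NT leaves, a difference of -2.61 ± 0.70 that was not called (edgeR adjusted p = 0.346). This gene was called lower in both Mustang families, with log2 fold changes of -2.55 ± 0.30 in NRP(D/E)2-RNAi (edgeR adjusted p = 0.000169) and of -5.34 ± 0.93 in NRPE1-RNAi (edgeR adjusted p = 0.00911).

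Among genes at an unadjusted p under 0.05, more were higher than lower in each abundance class. Of the genes at an unadjusted p under 0.05, 79.8% were higher in T leaves with all 6 libraries, 82.9% when libraries were scaled by their total counts instead of TMM (1702 higher, 5.57% of all tested, and 351 lower, 1.15%), and 70.7% without T3 (2342 higher, 7.56%, and 971 lower, 3.14%). The median log2 fold change of all tested genes was 0.01, 0.07 and -0.02 in these 3 fits. The share that was higher was 72% among such genes under 1 CPM, 76.7% at 1 to 10 CPM, 82% at 10 to 100 CPM and 86% above 100 CPM. Without T3 these shares were 61.2%, 63.3%, 75.5% and 83.3%. With total-count scaling the share above 100 CPM was 76.5%. With all 6 libraries, 18 such genes were higher and 7 lower under 1 CPM, and 74 and 12 above 100 CPM. Over all 1904 tested genes above 100 CPM the median log2 fold change was -0.15, against -0.02 to 0.04 in the other classes. The median above 100 CPM was -0.03 without T3 and -0.1 with total-count scaling. Of the genes at an unadjusted p under 0.05, 1050 were also at least 2-fold higher (3.44% of all tested) and 166 at least 2-fold lower (0.544%). Without regard to a test, all T libraries lay above all NT libraries in 2338 genes (7.66%) and below them in 1655 (5.42%). With total-count scaling these shares were 7.90% and 4.12%.

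T3 stood far above T1 and T2 in many of the genes with the largest fold changes. Of the 51 genes at least 16-fold higher at an unadjusted p under 0.05, 28 had T3 at least 4-fold above both T1 and T2. That ratio was taken on a scale of CPM + 0.5. The 51 were picked on fold changes that include T3, so an excess of T3 is partly built in. The share of all tested genes with T3 that far above T1 and T2 is not given here. In 28 of the 51 (54.9%) all T libraries lay above all NT libraries. That share was 81.9% among the 1050 genes at least 2-fold higher and 7.66% among all tested genes. Of the 51, edgeR called 2, Glyma.17G224900 and Glyma.06G286900, and both were of like level in T1, T2 and T3. Among the 1050 genes at least 2-fold higher, 88 had T3 at least 4-fold above both T1 and T2. None of the 166 genes at least 2-fold lower had T3 at least 4-fold below both.

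**Figure D4:**
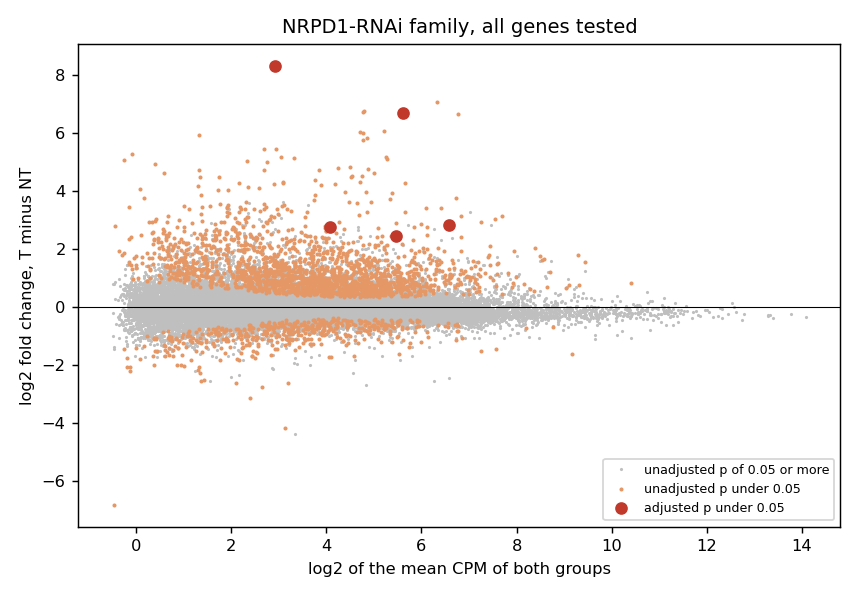
Log2 fold change (T minus NT, y axis) against the log2 of the mean CPM of both groups (x axis) for the 30539 genes tested in the Jack family; each dot is a gene, orange where the unadjusted p is under 0.05 and large red where the adjusted p is. The 5 red genes lie between 2.45 and 8.33 on the y axis, and orange dots above 0 outnumber those below it, 1887 to 477.

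A small set of genes was expressed in T leaves and at or near 0 in NT leaves. A gene was counted as switched on if every T library held at least 0.5 CPM and the mean of NT libraries was under 0.1 CPM, and as switched off in the reverse case. In Jack 24 of all 55589 genes were on (0.0432%) and 4 were off (0.0072%). Of the 24, 6 had no count in any NT library. Mean levels in T leaves ran from 0.633 to 15.1 CPM with a median of 1.21 CPM, so most were faint, and 5 passed the filter on low counts, of which Glyma.17G224900 was called. The model of 30 libraries tested 22 of the 24 and called 11 (0.55% of all genes were called higher). That model holds the Jack libraries on which the 24 were picked, so this is no separate check. The count changed when a library was left out, with 72 on without T1, 41 without T3 and 39 without NT3. The rule asks for every T library, so leaving out a T library can only keep or add genes. All 24 stayed on without T3. In NRP(D/E)2-RNAi the mean of T leaves exceeded that of NT leaves for all 24 genes, and 3 were switched on by the same rule (0.112% of all genes were on there). In NRPE1-RNAi it did so for 17 of the 24, and 3 were switched on (0.0899% of all genes were). In each Mustang family 11 of the 24 had an NT mean under 0.1 CPM, so only these could be switched on there by the rule. The share of all genes with a higher mean in T leaves is not given here.

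The 4 genes that were off are named because they are few, after their values were seen. Glyma.03G147100 (gene 1471 on chromosome 3) had no count in any Jack T library, against 1.43, 1.87 and 1.03 CPM in NT1, NT2 and NT3, which makes it at least 13.6-fold lower against a floor of 3 counts over the group. It was not called with the 6 Jack libraries (log2 fold change -6.81, edgeR adjusted p = 0.167) and was called in the model of 30 libraries (-7.47, edgeR adjusted p = 0.000232). All 4 Mustang groups expressed it, at means of 1.56 and 1.51 CPM in NRP(D/E)2-RNAi T and NT leaves and 1.75 CPM in each NRPE1-RNAi group. The Jack effect was below that of NRP(D/E)2-RNAi by -7.51 ± 1.07 and below that of NRPE1-RNAi by -7.47 ± 1.07 (edgeR adjusted p = 0.000548 and 0.000545). Glyma.19G245600 measured 0.112, 0 and 0.0771 CPM in T leaves, against 1.74, 1.17 and 0.723 CPM in NT leaves, and it was lower in T leaves of both Mustang families (edgeR adjusted p = 0.000184 for NRP(D/E)2-RNAi, 0.000663 for NRPE1-RNAi). Glyma.05G035900 measured 0, 0.115 and 0.0771 CPM in T leaves, against 0.921, 1.17 and 0.723 CPM in NT leaves. Its means in T and NT leaves were 0.0269 and 0.82 CPM in NRP(D/E)2-RNAi and 0.0437 and 0.0789 CPM in NRPE1-RNAi. Glyma.16G002900 measured 0, 0.23 and 0 CPM in T leaves, against 0.614, 0.586 and 0.723 CPM in NT leaves. In each Mustang group its mean was under 0.1 CPM. The number off was higher when a library was left out, at 13 without NT2, 9 without T2 and 8 without T3. The rule asks for every NT library, so leaving out an NT library can only keep or add genes.

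Higher genes were found on all 20 chromosomes. The share of tested genes that were higher at an unadjusted p under 0.05 ran from 4.77% to 7.38% over the chromosomes (5.79% to 8.96% without T3), and from 5.35% to 6.82% over 10 equal stretches of the gene order of each chromosome (6.54% to 8.64% without T3). At fine scale 3 runs of 5 or more tested genes in a row were all higher at an unadjusted p under 0.05, and no such run was lower. Without T3 there were 5 such runs, with that on chromosome 6 extended to 8 genes and others on chromosomes 14 (genes 801 to 808) and 16 (genes 1366 to 1378). The 3 runs found with all 6 libraries were picked on these values, so their levels are a description.

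On chromosome 6 the run took in 7 tested genes (genes 2647 to 2655 of 3258), with log2 fold changes of 1.05 to 2.81. Averaged over the run as log2(CPM + 0.5), the Jack T libraries lay at 4.08 ± 0.30 and the NT libraries at 2.39 ± 0.19 (SD, n = 3 each). NRP(D/E)2-RNAi leaves gave 2.90 ± 0.24 in T and 1.99 ± 0.43 in NT, and NRPE1-RNAi leaves gave 3.36 ± 0.54 in T and 2.36 ± 0.28 in NT (SD, n = 6 each). T and NT libraries overlapped in NRPE1-RNAi and not in Jack or NRP(D/E)2-RNAi. The fit of the 6 Jack libraries called 0 of the 7 genes (lowest edgeR adjusted p = 0.209, and 0.0893 without T3), and the model of 30 libraries called 2 of them higher for Jack (0.550% of all genes were). The Mustang families' own fits called 2 of 7 tested genes higher for NRPE1-RNAi (1.16% of all genes were) and 1 of 6 for NRP(D/E)2-RNAi (8.51%).

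On chromosome 13 a run of 6 tested genes (genes 1760 to 1765 of 3730) was high in Jack T leaves and not in the others. It lay at 4.96 ± 0.29 in Jack T libraries and 3.07 ± 0.22 in NT libraries (SD, n = 3 each). NRP(D/E)2-RNAi leaves gave 1.85 ± 0.15 in T and 1.84 ± 0.11 in NT, and NRPE1-RNAi leaves 2.38 ± 0.24 in T and 2.48 ± 0.27 in NT (SD, n = 6 each). The fit of the 6 Jack libraries called 0 of the 6 genes (lowest edgeR adjusted p = 0.102, and 0.0554 without T3), and the model of 30 libraries called 4 of them higher for Jack (0.550% of all genes were). The Mustang families' own fits could test 3 of the genes each and called 0. The third run, 5 tested genes on chromosome 13 (genes 949 to 953), lay at 2.88 ± 1.00 in Jack T libraries and 0.44 ± 0.58 in NT libraries, and its Mustang libraries overlapped widely, from 0.02 to 3.85 in NRP(D/E)2-RNAi T leaves and from -0.52 to 2.78 in NT leaves. Neighbouring genes may be related copies that share reads, and how the authors' counting treated such reads is not given in the sources used here.

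**Figure D5:**
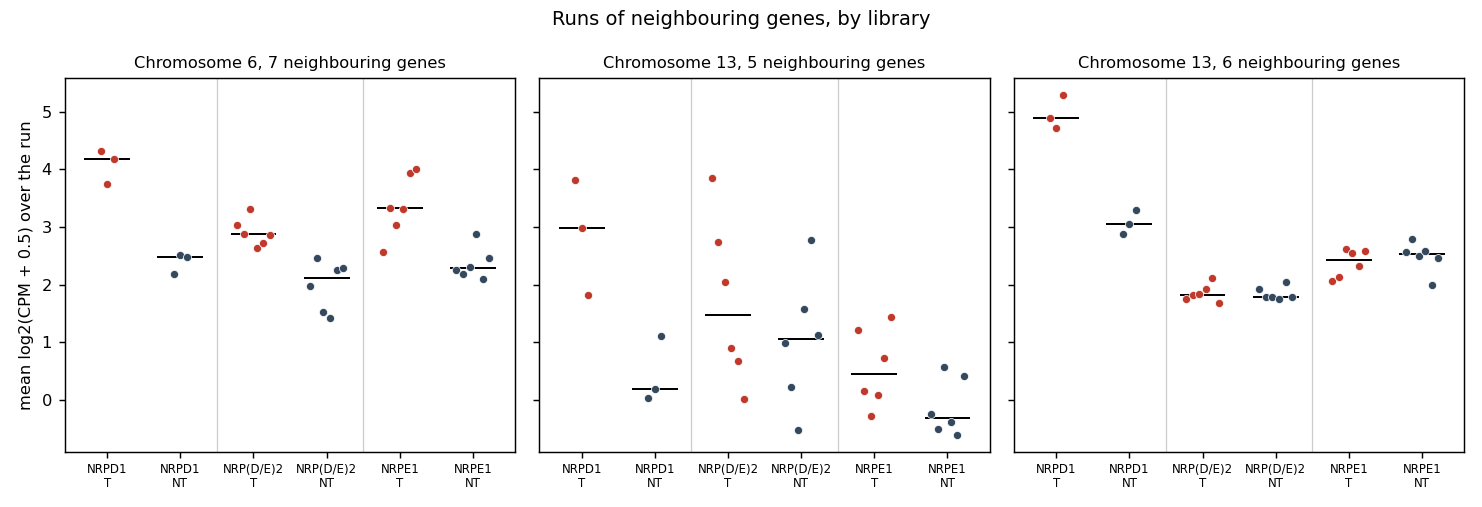
Mean log2(CPM + 0.5) over each run of neighbouring genes (y axis) in every library of the 3 families (x axis, T left of NT); points are libraries and bars group medians. The run of 6 genes on chromosome 13 is at 4.71 to 5.28 in Jack T libraries and 2.87 to 3.30 in Jack NT libraries, with T and NT level in both Mustang families, while the run on chromosome 6 has the higher median in T leaves of each family.

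The last comparison asked where the Jack effect differed from the effect of each other construct, as a difference of T minus NT differences in the model of 30 libraries. Against NRP(D/E)2-RNAi, 129 of 36186 genes differed (0.356%), 79 with the larger Jack effect (0.218%) and 50 with the smaller (0.138%). Against NRPE1-RNAi 129 genes differed as well (0.356%), 75 with the larger Jack effect (0.207%) and 54 with the smaller (0.149%). Both sets rest on the same 6 Jack libraries. Without T3 the counts were 69 and 42 against NRP(D/E)2-RNAi, with 47 and 34 of the genes in common, and 72 and 54 against NRPE1-RNAi, with 48 and 37 in common. Without NT1 the totals fell to 61 and 43, without NT2 to 75 and 67, and without T1 to 84 and 89.

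The genes with the smaller Jack effect were nearly all higher in the Mustang family. The sets below were picked on the difference itself, so calls in the Mustang family are partly built in. In the model of 30 libraries 6.72% of all genes were called higher and 7.3% lower for NRP(D/E)2-RNAi. For NRPE1-RNAi these shares were 2.44% and 1.39%. Of the 50 genes with the smaller Jack effect against NRP(D/E)2-RNAi, 49 were called higher in NRP(D/E)2-RNAi, and the median log2 fold changes were -0.16 in Jack and 3.72 in NRP(D/E)2-RNAi. Of these 50, 6 were called in Jack and 8 were under 1 CPM in Jack. Of the 54 against NRPE1-RNAi, 51 were called higher in NRPE1-RNAi, with medians of -0.03 in Jack and 3.52 in NRPE1-RNAi. Among them 7 were called in Jack and 8 were under 1 CPM in Jack. Of the 79 with the larger Jack effect against NRP(D/E)2-RNAi, 51 were called lower in NRP(D/E)2-RNAi and 22 were called in Jack in the same model (medians 0.59 in Jack and -1.35 there). Of the 75 against NRPE1-RNAi, 31 were called lower in NRPE1-RNAi and 40 were called in Jack in the same model (medians 1.44 in Jack and -0.54 there).

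Glyma.03G190800 (gene 1908 of 2649 on chromosome 3) showed the clearest difference. It measured 10.1, 10.1 and 12.7 CPM in Jack T leaves, against 13.6, 12.3 and 10.1 CPM in Jack NT leaves (log2 fold change -0.10 ± 0.22). In NRP(D/E)2-RNAi T leaves its median was 0.265 CPM (0.103 to 0.365), against 29 CPM (15.1 to 32.2) in NT leaves. In NRPE1-RNAi T leaves its median was 0.685 CPM (0.275 to 0.863), against 20.8 CPM (18.9 to 30.5) in NT leaves. The Jack effect exceeded that of NRP(D/E)2-RNAi by 6.55 ± 0.41 and that of NRPE1-RNAi by 4.99 ± 0.38 (edgeR adjusted p = 8.51e-11 and 1.19e-08). The gene was thus well expressed in Jack with or without the transgene and nearly lost in both transgenic Mustang families.

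Glyma.01G058400 (gene 584 of 2457 on chromosome 1) was nearly silent in Jack and rose in both Mustang families. Jack T leaves held 17 counts of it in all and Jack NT leaves 23, at or under 1.76 CPM in every library. NRP(D/E)2-RNAi T leaves had a median of 47 CPM (35.2 to 130), against 0.0253 CPM (0 to 0.134) in NT leaves. NRPE1-RNAi T leaves had a median of 9.94 CPM (5.19 to 34.7), against 0.026 CPM (0 to 0.151) in NT leaves. The Jack effect was below that of NRP(D/E)2-RNAi by -10.84 ± 1.41 and below that of NRPE1-RNAi by -8.40 ± 1.37 (edgeR adjusted p = 0.000106 and 0.00206). Glyma.16G186400 behaved alike, with 4 counts over the Jack T libraries and 6 over the Jack NT libraries, and medians of 5.69 CPM in T leaves and 0.0334 CPM in NT leaves of NRP(D/E)2-RNAi, and of 22 CPM in T leaves and 0.322 CPM in NT leaves of NRPE1-RNAi.

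Glyma.09G107500 (gene 1075 of 2865 on chromosome 9) was higher in T leaves of each family, by unlike amounts. Jack T leaves measured 4.59, 6.9 and 2.93 CPM, against 0.512, 0.469 and 0.31 CPM in Jack NT leaves (log2 fold change 3.46 ± 0.46, edgeR adjusted p = 0.11, and 0.0423 without T3). NRP(D/E)2-RNAi T leaves had a median of 7.73 CPM and NRPE1-RNAi T leaves a median of 10.7 CPM, while 5 of 6 and 6 of 6 of their NT libraries held no count of the gene. The larger fold in Mustang goes with NT libraries at or near 0, so that its fitted value depends on the prior count. The Jack effect was below that of NRPE1-RNAi by -6.97 ± 0.76 and below that of NRP(D/E)2-RNAi by -5.17 ± 0.68 (edgeR adjusted p = 3.13e-05 and 0.000358).

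The remaining named differences rested on few counts or on 1 library. Glyma.19G146800 had a larger Jack effect than NRPE1-RNAi by 7.52 ± 1.48 (edgeR adjusted p = 0.0148), but its Jack level came from T3 (0, 0 and 3.32 CPM in T1, T2 and T3, against 0, 0 and 0.103 CPM in NT libraries), and without T3 the difference was 0.33 (adjusted p = 1 by edgeR). Glyma.08G355900 had a larger Jack effect than NRP(D/E)2-RNAi by 7.39 ± 1.68 (edgeR adjusted p = 0.0455). Jack held 26 counts of it in T libraries and 3 in NT libraries, and the median was 0.505 CPM in NRP(D/E)2-RNAi T leaves, against 14.8 CPM in NT leaves.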

How the data were processed

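Each library came as a table of 55589 soybean gene identifiers with the authors' deposited whole-number count per gene. The submitters' processing notes name FastQC 0.11.5, STAR 2.5.3a and edgeR. The genome build, the counter and its use of strand are not given in the sources used here. Samples were grouped by title. Counts were fitted in R 4.3.3 with edgeR 4.0.16 (TMM scaling, filterByExpr, robust quasi-likelihood test, Benjamini-Hochberg adjustment over all genes tested), T against NT in the 6 Jack libraries, and differences between families in a model of all 30. DESeq2 1.42.0 and limma 3.58.1 (voom) were alternatives. The scripts were tested on simulated data. No pair of libraries of a group agreed within sampling noise.

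The 6 Jack libraries held 12204408 to 13743064 counts, and intervals and floors cover counting error only. Named genes are all genes called, then for each fit the largest changes in each direction among genes that reached 5 CPM in the higher group and whose groups did not overlap, and for differences between families the largest that were called. Since no names were matched, at most 2 a direction were taken from each of these lists. Gene lists by name could not be used, and no sequence is shown. The genes, lists and tests were chosen with earlier results of these data known. Settings that leave out T3 from the models of DESeq2 and of 30 libraries were added after seeing the data.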

Additional observations from a re-analysis of the deposited data

Results flagged for a closer look

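The effect of the transgene in Jack differed from that in Mustang for 129 genes against NRP(D/E)2-RNAi and 129 against NRPE1-RNAi, by a test of the difference itself in edgeR. Construct and cultivar cannot be told apart in it. Among named genes the log2 difference to NRP(D/E)2-RNAi was 7.39 for Glyma.08G355900, 6.55 for Glyma.03G190800, -10.84 for Glyma.01G058400, -6.82 for Glyma.16G186400, -5.17 for Glyma.09G107500 and -7.51 for Glyma.03G147100. The log2 difference to NRPE1-RNAi was 7.87 for Glyma.17G224900, 2.30 for Glyma.20G015900, 4.99 for Glyma.03G190800, -8.40 for Glyma.01G058400, -6.58 for Glyma.16G186400, 7.52 for Glyma.19G146800, -6.97 for Glyma.09G107500 and -7.47 for Glyma.03G147100.

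Groups of 3 Jack libraries are too small for a test of outlying samples. In the Mustang groups, where the named genes were read, 12 of 51 sets of 6 libraries held a library apart from the rest by Dixon's criterion. Its rate of about 1 of 20 holds for normally distributed values. The criterion was applied to CPM, which are skewed and often 0 here. The flags are therefore a description, and no excess over that rate can be read from them. In NRPE1-RNAi T leaves these were replicate 6 at 33.5 CPM for Glyma.09G071600, replicate 2 at 5.47 CPM for Glyma.13G188800 and replicate 1 at 1.43 CPM for Glyma.19G047000. In NRPE1-RNAi NT leaves they were replicate 6 at 19.7 CPM for Glyma.06G286900, replicate 3 at 7.63 CPM for Glyma.13G188800, replicate 5 at 45.9 CPM for Glyma.19G047000 and replicate 4 at 30.5 CPM for Glyma.03G190800. In NRP(D/E)2-RNAi T leaves they were replicate 1 at 1.17 CPM for Glyma.13G188800 and replicate 3 at 17.2 CPM for Glyma.19G146800. In NRP(D/E)2-RNAi NT leaves they were replicate 5 at 19.8 CPM for Glyma.09G071600, replicate 1 at 0.71 CPM for Glyma.20G015900 and replicate 1 at 0.0507 CPM for Glyma.09G107500. Each of them was the highest of its 6 libraries.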

How the results depend on the processing

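The count of 5 called genes in Jack was 1 with total-count scaling, 1 with limma's voom, 10 with no filter on low counts, 5 with a filter of 1 CPM in 3 libraries, 208 in the model of 30 libraries, 264 in that model without T3, 554 with DESeq2 and 724 with DESeq2 without T3. Leaving out 1 Jack library gave 0 to 54. With the replicate number as a block it was 0, and the same block gave 54 genes for the difference to NRP(D/E)2-RNAi and 50 for that to NRPE1-RNAi, against 129 each. The numbers are not known to pair plants: deviations of same-numbered T and NT libraries correlated at -0.3, -0.3 and -0.5. For the differences, DESeq2 called 341 and 343 genes, and leaving out 1 of the 30 libraries gave 61 to 151 and 43 to 158. Genes switched on and off numbered 13 and 1 at limits of 1 and 0.2 CPM, and 22 to 72 and 5 to 13 with 1 library left out. The difference in genes detected stayed above 0, at 149.7 to 974.7. The causes were not tested. The log2 fold changes of the 5 called and 2 lower genes named for Jack, and the differences between families recomputed for 7 genes, kept their direction in each setting run, and the switched-off genes were not recomputed. Leaving out a library often ended a call: in 5 of 6 cases for Glyma.17G224900, 4 of 6 for Glyma.06G286900, and, against NRP(D/E)2-RNAi, 22 of 30 for Glyma.08G355900. The medians of gene lists by name were not run. With 3 libraries a group, genes under about 1 CPM are limited by counting error.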
